A study of Mus musculus with 6 samples.

Results

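A set of 9 genes that mark the bile duct epithelium and the progenitor cells of the liver was followed in WT and *β-cateninΔ(ex3)/+* mouse livers: *Krt7*, *Krt8*, *Krt18*, *Krt19*, *Epcam*, *Sox9*, *Spp1*, *Cd24a* and *Prom1*. They were taken by gene name from the deposited expression table, and each of the 9 names matched 1 of its 31950 genes. The markers did not move together. *Krt8* was 2.08-fold higher in the mutant livers, *Spp1*, *Cd24a* and *Prom1* were 2.39-fold, 11.6-fold and 13.5-fold lower in mean level, and *Krt18*, *Krt19*, *Epcam* and *Sox9* did not pass both thresholds of the test. The mean of *Epcam* was 3.05-fold lower in the mutant livers, but its change was under 2-fold on the scale of the test, log2(FPKM + 1). *Krt7* was below the expression filter.

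The series holds poly(A) RNA from 3 WT and 3 *β-cateninΔ(ex3)/+* livers of C57BL/6 mice, all labelled as 8 weeks old, with 1 library per liver. The mutants carry 1 allele of *Ctnnb1*, the β-catenin gene, without exon 3, the exon that encodes the phosphorylation sites through which the protein is marked for destruction. The study's methods describe deletion with an *Alb-Cre* transgene, with Cre adenovirus injected into the tail vein, and with the tamoxifen-inducible *ERT2-Alb-Cre* in hepatocytes, whose driver is the albumin promoter. They do not say which of them made the sequenced livers, or whether the WT mice received Cre, virus or tamoxifen; the genotype name of the labels is the one used for the tamoxifen-treated mice. Sex is given in neither the labels nor the methods.

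Cholangiocytes line the bile ducts and share a common origin with hepatocytes in the hepatoblast of the foetal liver. Keratins build the intermediate filaments of epithelia as pairs of a type I and a type II chain: hepatocytes contain the pair of *Krt8* (type II) and *Krt18* (type I), and cholangiocytes add *Krt7* (type II) and *Krt19* (type I). *Sox9* is a transcription factor of the ductal plate, *Epcam* an adhesion molecule of the duct surface, and *Spp1* (osteopontin) a secreted phosphoprotein. *Cd24a* and *Prom1* (CD133) encode surface proteins used to sort liver progenitor cells, and *Cd24a* is also abundant on developing blood cells.

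The sequences before the start sites of the *Krt8* and *Krt18* genes are shown because these partners lie on the same chromosome and differed in how far they moved, and those of *Spp1* and *Prom1* because both genes fell. Each is the 250 bases before the RefSeq start (GRCm38.p6), written 5′ to 3′ on the strand of the gene: chr15:102004343-102004592 on the minus strand for *Krt8*, chr15:102027966-102028215 on the plus strand for *Krt18*, chr5:104434861-104435110 on the plus strand for *Spp1* and chr5:44101737-44101986 on the minus strand for *Prom1*. The RefSeq starts of *Krt8*, *Krt18* and *Prom1* lie inside the deposited gene coordinates, so part of each of these windows is within the gene as deposited. The deposited *Krt8* reaches 102004482, *Krt18* begins at 102028180 and *Prom1* reaches 44101958. Capitals mark matches on either strand to the motifs named after the sequences.
Krt8: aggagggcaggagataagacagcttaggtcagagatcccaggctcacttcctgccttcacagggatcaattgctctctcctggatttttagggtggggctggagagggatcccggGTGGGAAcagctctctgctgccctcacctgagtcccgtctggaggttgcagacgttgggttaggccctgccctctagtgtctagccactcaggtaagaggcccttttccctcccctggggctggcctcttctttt
Krt18: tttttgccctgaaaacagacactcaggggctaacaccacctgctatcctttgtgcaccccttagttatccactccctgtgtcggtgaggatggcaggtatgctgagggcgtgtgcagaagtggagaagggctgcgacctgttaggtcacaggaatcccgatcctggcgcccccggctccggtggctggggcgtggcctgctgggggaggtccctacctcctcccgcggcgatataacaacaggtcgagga
Spp1: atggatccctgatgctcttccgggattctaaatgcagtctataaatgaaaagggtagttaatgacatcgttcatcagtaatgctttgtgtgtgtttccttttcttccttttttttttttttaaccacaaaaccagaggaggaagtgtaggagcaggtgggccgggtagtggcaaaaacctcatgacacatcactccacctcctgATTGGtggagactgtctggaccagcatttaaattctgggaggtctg
Prom1: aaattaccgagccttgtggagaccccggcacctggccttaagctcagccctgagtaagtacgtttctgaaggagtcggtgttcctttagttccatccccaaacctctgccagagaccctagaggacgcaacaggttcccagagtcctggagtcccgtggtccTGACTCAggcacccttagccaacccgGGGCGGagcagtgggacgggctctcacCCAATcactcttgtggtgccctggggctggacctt

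The letters of 6 motifs were searched on both strands of these windows, and none of the matches overlapped another. The cores CTTTGAT and CTTTGTT of the TCF/LEF factors, the DNA-binding partners of β-catenin, were in none of the 6 marker windows that RefSeq gave and in 3.21% and 5.03% of all 32851 windows. The *Krt8* window holds the RBPJ core GTGGGAA of the Notch pathway, with its first base 135 bases before the start (5.42% of all windows hold it). The *Prom1* window holds the AP-1 letters TGACTCA at 88 bases (4.46%), the GC box GGGCGG at 62 bases (32.7%) and the CCAAT box at 35 bases before the start. CCAAT is also in the *Spp1* window, at 46 bases, and in 33.8% of all windows. The *Krt18* window holds none of the 6 motifs. These are letter matches within 250 bases and say nothing about whether a factor binds. The matches of *Krt8* and *Prom1*, and the whole *Krt7* window, lie inside the deposited coordinates of these genes. *Krt7* and *Epcam* were the other two markers with an entry, and *Krt19*, *Sox9* and *Cd24a* had none.

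The libraries differed between genotypes in more than the markers, and these differences cannot be told apart from the genotype. *Xist*, transcribed from the inactive X chromosome, had 20.3 to 22.2 FPKM in WT and 0 to 0.0146 FPKM in mutant livers. The Y-linked *Ddx3y* had 0 to 0.0156 and 5.83 to 5.98 FPKM. By these genes the WT libraries read as female and the mutant libraries as male, so every comparison here is also between the sexes. Alpha-fetoprotein (*Afp*), which the mouse liver silences after birth, had 601, 612 and 610 FPKM in WT and 2.48, 2.38 and 2.81 FPKM in mutant livers, although every liver carries the same age label. Of the 12 genes listed for the foetal and young liver, 9 were tested, 6 of which passed a filter of at least 0.5 FPKM in mean level through their WT level alone, and all 9 were lower in mutant livers. The list summed to 3848 to 3916 FPKM in WT and 5.90 to 6.46 FPKM in mutant livers, where *Igf2* and *Lin28b* were listed at 0. Hepatocyte genes were abundant in both groups, with *Alb* at 39618 to 43342 FPKM in WT and 24721 to 25012 FPKM in mutant livers. Of the 9 hepatocyte genes tested, *Apoa1* and *Ttr* were lower and *Apoc3* and *Hnf4a* higher in mutant livers, and the list summed to 72167 to 75577 FPKM in WT and 39407 to 39717 FPKM in mutant livers. Of 9 Wnt target genes, 6 were higher in mutant livers and none was lower. *Glul*, among the 6, had 102 to 105 FPKM in WT and 619 to 633 FPKM in mutant livers. Beside the counts of this paragraph, 8.17% of all genes tested were called higher and 4.52% lower. All values are FPKM, fragments scaled by transcript length and by all mapped fragments, so depth is known only by estimate: steps between the low values put the mutant libraries at 68.9% to 79.4% of the mean WT depth.

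The 13243 genes with a mean of at least 0.5 FPKM over the 6 livers were tested with limma on log2(FPKM + 1), with Benjamini-Hochberg adjustment over all of them. A gene was called when its adjusted p was under 0.05 and its fold change on that scale at least 2; a pseudocount of 1 understates the change of genes near or below 1 FPKM. By this rule 12.7% of all genes tested were called, 8.17% higher and 4.52% lower in mutant livers, and 57.0% had an adjusted p under 0.05 at any fold. Of the 8 markers tested, 1 was higher, 3 were lower and 4 were not called. At any fold, 2 were higher and 4 lower. *Prom1* and *Epcam*, both among these 4 lower, passed the filter through their WT level alone. Their part in the counts and the median given here supports nothing about the set. In 7 of the 8 the lowest and highest livers of the groups did not overlap, against 66.0% of all genes tested. The median log2 fold change was -0.47 for these 8 and 0.14 for all genes tested. In bulk liver, fewer cells of a type and less RNA per cell cannot be told apart.

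**Figure D1:**
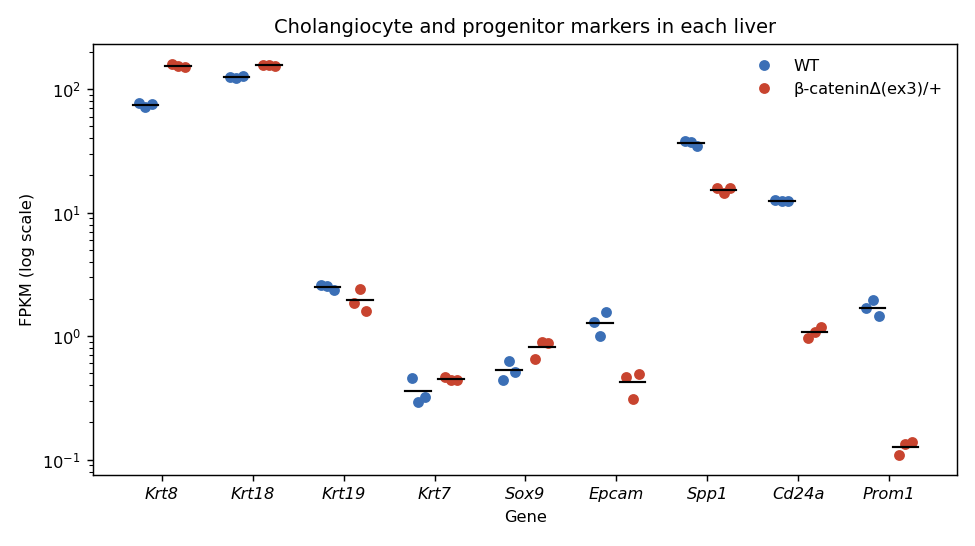
FPKM (log scale) of the 9 markers in each liver, with WT in blue, *β-cateninΔ(ex3)/+* in red and a bar at each group mean. *Krt8* lies higher in all 3 mutant livers, *Spp1*, *Epcam*, *Cd24a* and *Prom1* lie lower, and the groups overlap for *Krt7* and *Krt19*.

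The levels of the markers, which FPKM puts on a per-length scale, spanned a wide range in both groups. In WT livers *Krt18* was highest (126 ± 3.39 FPKM, SD, n = 3), followed by *Krt8* (74.6 ± 2.65), *Spp1* (36.7 ± 1.77), *Cd24a* (12.5 ± 0.119) and *Krt19* (2.51 ± 0.121). *Prom1* (1.70 ± 0.242) and *Epcam* (1.29 ± 0.273) came next with overlapping livers, and so did *Sox9* (0.528 ± 0.0927) and *Krt7* (0.357 ± 0.0857). In mutant livers *Krt18* (156 ± 1.31) and *Krt8* (155 ± 5.51) overlapped at the top, ahead of *Spp1* (15.3 ± 0.774), *Krt19* (1.94 ± 0.415), *Cd24a* (1.07 ± 0.106) and *Sox9* (0.811 ± 0.139). *Krt7* (0.450 ± 0.0107) and *Epcam* (0.421 ± 0.0977) overlapped, and *Prom1* (0.126 ± 0.0158) was last. *Cd24a* thus moved from above *Krt19* to below it, and *Prom1* from above *Sox9* and *Krt7* to below both. The 9 markers summed to 249.7 to 260.2 FPKM in WT and to 325 to 337 FPKM in mutant livers, most of it *Krt8* and *Krt18*.

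Among the keratins, *Krt8* alone of the 4 markers passed both thresholds. *Krt8* (ENSMUSG00000049382, chr15:101996698-102004482) had 76.8, 71.7 and 75.4 FPKM in WT livers and 161, 154 and 150.2 FPKM in mutant livers. Every mutant liver was above every WT liver. The log2 fold change was 1.05 (SE 0.043, 95% interval 0.94 to 1.15, limma adjusted p = 7.29e-06), and the exact permutation test gave p = 0.1, the smallest that 3 livers against 3 allow. This change lies just above the 2-fold threshold. Median-ratio scaling, which moved the median of all genes by -0.12, gave 0.87 (limma adjusted p = 1.27e-05), and quantile normalization, which moved it by -0.16, gave 0.81 (limma adjusted p = 1.90e-05), so that neither called *Krt8*. The predicted gene *Gm36026* overlaps *Krt8* on the opposite strand, with at most 0.123 FPKM in any liver.

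*Krt18* (ENSMUSG00000023043, chr15:102028180-102032027), the type I partner of *Krt8*, had 126, 122 and 129 FPKM in WT and 156, 157 and 155 FPKM in mutant livers. The groups did not overlap, but the gap was a small part of the level. Its log2 fold change of 0.31 (SE 0.032, 95% interval 0.23 to 0.39, limma adjusted p = 0.000375) was under the 2-fold threshold. It was 0.13 with median-ratio scaling and 0.10 with quantile normalization. Its copy *Gm5200*, which matches 1269 of its 1437 bases at 90.2% identity, was listed at 0 in all livers but 1, which had 0.0151 FPKM.

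The duct keratins were far less abundant than *Krt8* and *Krt18* and did not pass the test. *Krt19* (ENSMUSG00000020911, chr11:100140810-100146120) had 2.61, 2.55 and 2.38 FPKM in WT and 1.85, 2.40 and 1.58 FPKM in mutant livers. The second mutant liver lay within the WT range, and the other two lay below it. The log2 fold change was -0.26 (SE 0.11, 95% interval -0.53 to 0.0031, limma adjusted p = 0.0830, exact permutation p = 0.2). Without mutant replicate 2 it was -0.37 (limma adjusted p = 0.0136), and with median-ratio scaling -0.38 (limma adjusted p = 0.0270), both under 2-fold. *Krt7* (ENSMUSG00000023039, chr15:101411043-101430313) had 0.454, 0.293 and 0.323 FPKM in WT and 0.462, 0.444 and 0.444 FPKM in mutant livers. WT replicate 1 lay inside the mutant range. With the filter removed its log2 fold change was 0.098 (95% interval -0.050 to 0.25, limma adjusted p = 0.290, exact permutation p = 0.3). The predicted gene *Gm671*, which overlaps it on the opposite strand, was above 0 in 1 WT liver and listed at 0 in the others.

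**Figure D2:**
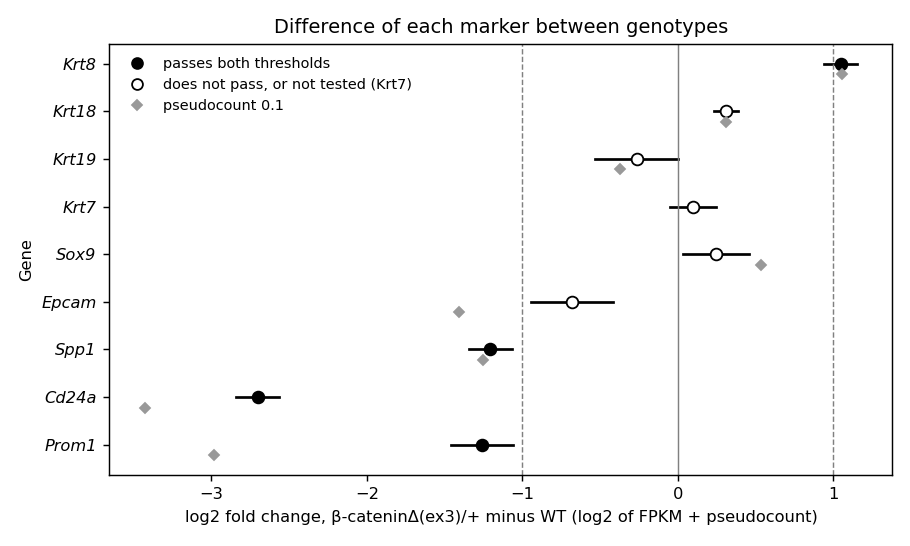
Log2 fold change of each marker with its 95% interval on log2(FPKM + 1), filled where both thresholds were passed, and grey diamonds for a pseudocount of 0.1. *Krt8* sits at the upper 2-fold line, *Spp1*, *Prom1* and *Cd24a* lie beyond the lower one, and the diamonds of *Epcam*, *Cd24a* and *Prom1* lie farther to the left than their circles.

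Ratios between keratins within a liver do not depend on how its library was scaled. The ratio of *Krt8* to *Krt18* was 0.609, 0.587 and 0.585 in WT and 1.04, 0.979 and 0.971 in mutant livers. *Krt8* RNA was thus below *Krt18* RNA in every WT liver and close to it in every mutant liver. The ratio differed 1.68-fold (exact permutation p = 0.1, the smallest possible). The ratio of *Krt19* to *Krt8* was 0.0337 ± 0.00204 (SD, n = 3) in WT and 0.0125 ± 0.00267 in mutant livers, and that of *Krt19* to *Krt18* was 0.0200 ± 0.00137 and 0.0125 ± 0.00255. The ratio of *Krt7* to *Krt8* was 0.00476 ± 0.00100 and 0.00290 ± 4.55e-05. In each of these 3 ratios every mutant liver was below every WT liver (exact permutation p = 0.1 for each). The ratio of *Krt7* to *Krt18*, added after the data were seen, was 0.00360, 0.00240 and 0.00251 in WT and 0.00297, 0.00282 and 0.00287 in mutant livers, so its groups overlapped.

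**Figure D3:**
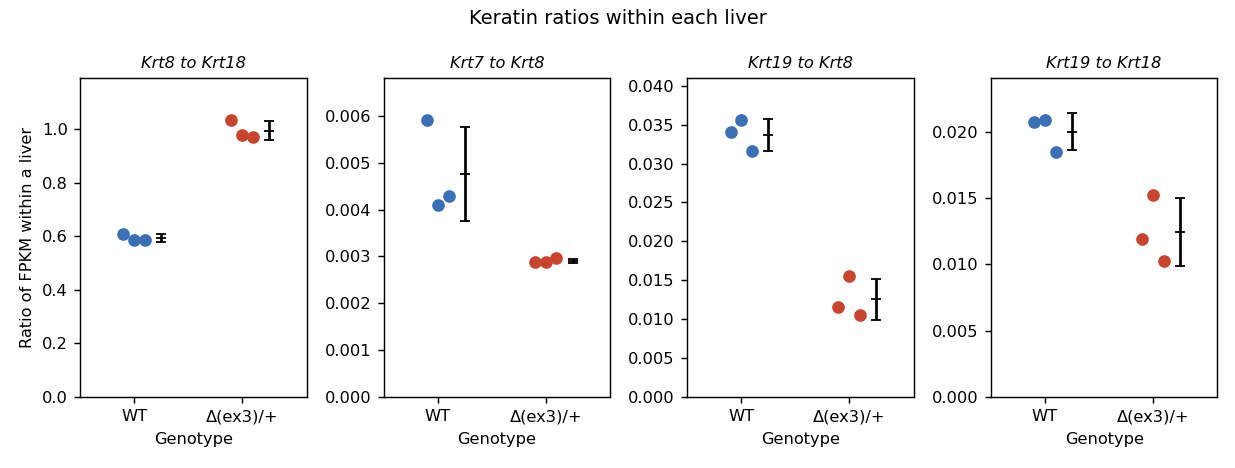
Ratio of FPKM within each liver for 4 pairs of keratins, with the mean ± SD beside the 3 livers of each genotype and every axis starting at 0. *Krt8* to *Krt18* lies near 0.6 in WT and near 1 in mutant livers, and the other three ratios are lower in mutant livers.

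The wider keratin family is described by its values. Type I keratins cluster on chromosome 11 and type II keratins on chromosome 15, where type I *Krt18* also lies. The table holds 26 genes named as keratins, 8 of them listed at 0 in every liver, and 9 passed the filter. *Krt4*, *Krt79*, *Krt20*, *Krt23* and the pseudogene *Krt8-ps* passed it through 1 genotype alone and so had to differ in mean level. Their counts support nothing about the family. On chromosome 15, 3 of the 4 tested were higher and none was lower. *Krt4*, a type II keratin of mucosal epithelia, had 0, 0.0191 and 0.0274 FPKM in WT and 3.71, 3.91 and 4.23 FPKM in mutant livers. *Krt79*, another type II keratin, had 0, 0 and 0.00861 FPKM in WT and 1.53, 1.66 and 1.54 FPKM in mutant livers. Both genes went from nearly no signal to a level above that of *Sox9*.

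On chromosome 11 none of the 4 tested was higher and 2 were lower. *Krt23*, a type I keratin, had 22.6, 29.5 and 25.2 FPKM in WT and 0.267, 0.299 and 0.194 FPKM in mutant livers, a log2 fold change of -4.41 (SE 0.10, limma adjusted p = 6.68e-07). *Krt20*, a type I keratin of the gut lining, had 6.97, 7.49 and 6.78 FPKM in WT and 0, 0 and 0.0266 FPKM in mutant livers. Each was thus more abundant in WT liver than the duct keratin *Krt19* and nearly absent from the mutant libraries. *Krt10* had 0.923 to 1.05 FPKM in WT and 0.814 to 1.11 FPKM in mutant livers, so its groups overlapped. On chromosome 7, *Krt8-ps*, a pseudogene whose transcript matches 941 of the 1958 bases of *Krt8* at 98.6% identity, had 0.0862 to 0.260 FPKM in WT and 0.841 to 1.46 FPKM in mutant livers, and was not called. Reads of these copies may have been split between them, and the pseudogene is at most a small fraction of the *Krt8* level in any liver.

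**Figure D4:**
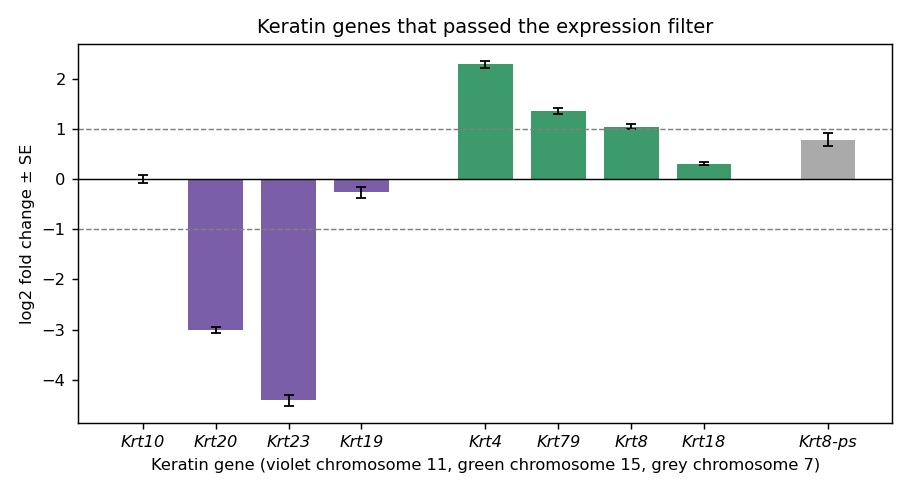
Log2 fold change on log2(FPKM + 1) with its SE for the 9 keratin-named genes that passed the expression filter, coloured by chromosome, with dashed lines at 2-fold. The bars of *Krt4*, *Krt79* and *Krt8* on chromosome 15 pass the upper line and those of *Krt20* and *Krt23* on chromosome 11 pass the lower line.

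The duct factor *Sox9* and the adhesion molecule *Epcam* were both at low levels. *Sox9* (ENSMUSG00000000567, chr11:112782224-112787760) had 0.444, 0.627 and 0.512 FPKM in WT and 0.650, 0.896 and 0.885 FPKM in mutant livers. The mutant livers were higher without overlap, but the lowest of them was next to the highest WT liver. The log2 fold change of 0.24 (SE 0.086, 95% interval 0.034 to 0.45, limma adjusted p = 0.0518, exact permutation p = 0.1) did not pass the test; over the alternatives its adjusted p ran from 0.0284 to 0.154. By the estimated depth a *Sox9* value rests on about 91 to 143 reads or fragments per liver.

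*Epcam* (ENSMUSG00000045394, chr17:87635979-87651106) had 1.29, 1.01 and 1.56 FPKM in WT and 0.464, 0.310 and 0.491 FPKM in mutant livers. All 3 mutant livers were below all 3 WT livers, with a mean 3.05-fold lower. On the log2(FPKM + 1) scale the change was -0.68 (SE 0.11, 95% interval -0.95 to -0.41, limma adjusted p = 0.00257), which is under 2-fold and was not called. With a pseudocount of 0.1 it was -1.41 (limma adjusted p = 0.00266) and *Epcam* was called. The gene passed the expression filter through its WT level alone. The opposite signs of *Sox9* and *Epcam* are a description; their difference was not tested.

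*Spp1* (ENSMUSG00000029304, chr5:104435118-104441050) had 38.3, 37.1 and 34.8 FPKM in WT and 15.7, 14.5 and 15.9 FPKM in mutant livers. The groups were well separated, with little spread in either. Its log2 fold change was -1.21 (SE 0.057, 95% interval -1.35 to -1.07, limma adjusted p = 1.30e-05, exact permutation p = 0.1). The predicted gene *Gm42793* overlaps it on the same strand and had at most 0.108 FPKM in any liver.

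The surface markers of progenitor cells fell most. *Cd24a* (ENSMUSG00000047139, chr10:43578284-43584265) had 12.6, 12.4 and 12.4 FPKM in WT and 0.964, 1.08 and 1.17 FPKM in mutant livers. The WT livers were almost identical, and each was more than 10 times the highest mutant liver. The log2 fold change was -2.70 (SE 0.057, 95% interval -2.84 to -2.56, limma adjusted p = 4.28e-07, exact permutation p = 0.1), and -3.43 with a pseudocount of 0.1. Its copies *Gm6212* and *Gm15352* match it over 228 and 258 bases at 95.2% and 91.9% identity; *Gm6212* was listed at 0 in every liver and *Gm15352* was not analysed here.

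*Prom1* (ENSMUSG00000029086, chr5:43993620-44101958) had 1.70, 1.94 and 1.46 FPKM in WT and 0.108, 0.133 and 0.138 FPKM in mutant livers. It had the largest ratio of group means among the 9 markers. Its log2 fold change of -1.26 (SE 0.081, 95% interval -1.46 to -1.06, limma adjusted p = 4.99e-05, exact permutation p = 0.1) became -2.99 with a pseudocount of 0.1. It passed the expression filter through its WT level alone, and at a mean of at least 1 FPKM it was not tested. The mutant values rest on about 17 to 22 reads or fragments per liver by the estimated depth, counted on the longest of its 19 annotated transcripts. The predicted gene *Gm16401* overlaps it on the opposite strand and was listed at 0 in all 3 mutant livers and at 0.0968 to 0.175 FPKM in WT livers.

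These markers are not restricted to ducts and progenitors, and lists of genes for other cell types moved between the groups as well. The shares called over all genes tested were 8.17% higher and 4.52% lower. Of 5 B cell genes tested, 4 were lower and none was higher, and the list of 7 summed to 29.8 to 32.3 FPKM in WT and 3.45 to 5.21 FPKM in mutant livers. Of 9 neutrophil and myeloid precursor genes, 7 were lower and 1 was higher, with sums of 344 to 369 and 48.9 to 53.6 FPKM. *S100a9*, abundant in neutrophils, had 170 to 179 FPKM in WT and 17.7 to 19.1 FPKM in mutant livers, whereas the myeloid protease *Prtn3* had 2.24 to 4.02 and 18.3 to 23.3 FPKM. Of 6 erythroid genes tested, 4 were lower and none was higher, with sums of 1783 to 2009 and 1002 to 1020 FPKM, and *Rhag* was at 0 in all mutant livers. *Cd24a* is expressed in all 3 of these lineages; the part of these cells in its fall was not tested.

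Stellate and macrophage genes bear on *Spp1*, which non-epithelial cells of the liver can also express. Beside the counts of this paragraph, 8.17% of all genes tested were called higher and 4.52% lower. Of 8 stellate cell genes, 5 were lower and none was higher, and the list summed to 72.5 to 74.3 FPKM in WT and 19.5 to 21.7 FPKM in mutant livers. Of 8 macrophage and Kupffer cell genes tested, 4 were higher and 1 was lower, with sums of 280 to 295 and 706 to 715 FPKM over the list of 10. *Clec4f*, specific to Kupffer cells, had 47.7 to 49.7 FPKM in WT and 155 to 159 FPKM in mutant livers. *Marco*, the lower gene of this list, had 47.5 to 52.8 FPKM in WT and 17.8 to 19.5 FPKM in mutant livers. The part of either cell type in the *Spp1* values was not tested. Of 6 endothelial genes 1 was lower and none was higher, with sums of 68.6 to 69.9 and 49.3 to 50.5 FPKM. Mesothelial cells also contain *Krt8*, *Krt18* and *Krt19*; none of the 4 mesothelial genes tested was called, and the list of 6 in the table summed to 9.90 to 10.9 FPKM in WT and 6.73 to 7.58 FPKM in mutant livers.

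**Figure D5:**
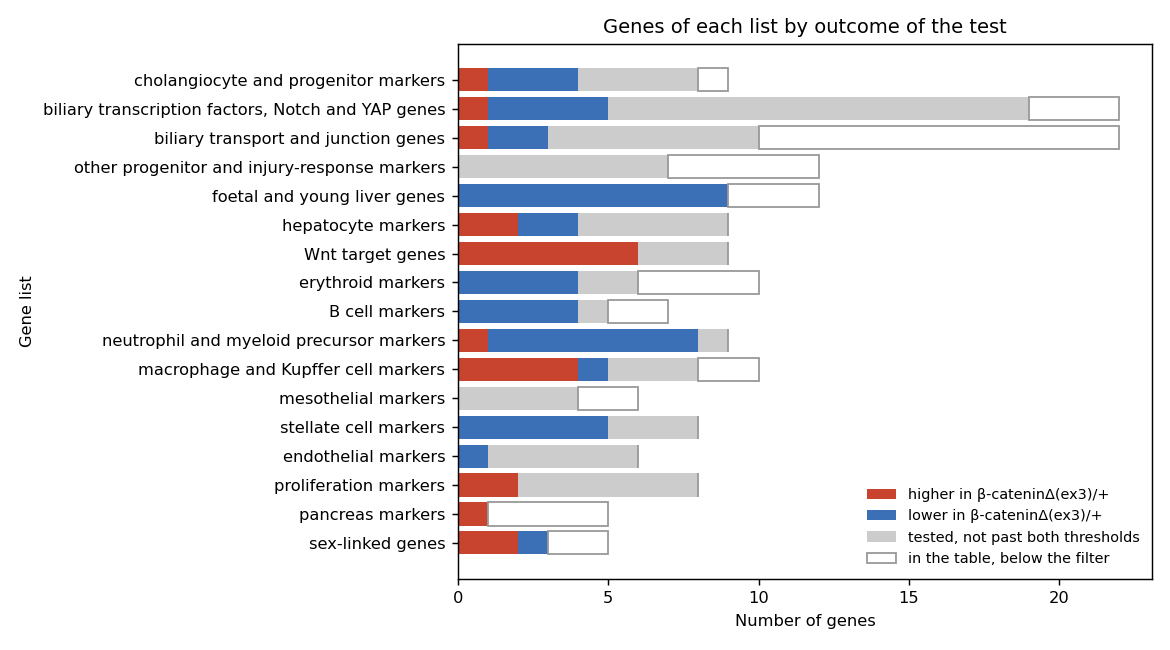
Number of genes of each list that were called higher or lower in *β-cateninΔ(ex3)/+* livers, were tested and not called, or were below the expression filter. The foetal and young liver list is lower throughout among its 9 tested genes, and the lists of biliary factors and of biliary transport have called genes in both directions.

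Of 22 biliary transcription factors and genes of the Notch and YAP pathways, 19 were tested, 1 was higher, 4 were lower and 14 were not called, beside 8.17% higher and 4.52% lower of all genes tested, with a median log2 fold change of -0.14 against 0.14 for all genes. Without WT replicate 3, 2 of them were called higher. The 4 lower genes were the SOX factor *Sox4*, the Notch targets *Hes1* and *Heyl*, and the YAP-binding factor *Tead2*. *Sox4* had 1.83 to 1.93 FPKM in WT and 0.147, 0.263 and 0.285 FPKM in mutant livers (log2 fold change -1.23, SE 0.068, limma adjusted p = 2.52e-05). *Tead2* had 3.63, 4.85 and 3.34 FPKM in WT and 0.263, 0.247 and 0.258 FPKM in mutant livers. Both were clearly apart in every liver.

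*Heyl* had 2.66, 2.99 and 3.28 FPKM in WT and 0.349, 0.615 and 0.478 FPKM in mutant livers. *Hes1* had 13.1, 11.7 and 13.3 FPKM in WT and 4.66, 6.59 and 5.70 FPKM in mutant livers; its log2 fold change was -1.05 (limma adjusted p = 0.000549), and -0.94 without mutant replicate 1, which is no longer called. The rest of the Notch pathway moved less. The receptor *Notch2* had 2.53 to 2.65 FPKM in WT and 2.35 to 2.73 FPKM in mutant livers, and the ligand *Jag1* had 0.733 to 0.923 and 0.391 to 0.729 FPKM. *Ccn1*, a YAP target, was the only gene of the list called higher, with 3.46, 2.75 and 3.16 FPKM in WT and 9.21, 8.68 and 8.38 FPKM in mutant livers. *Ccn2*, another YAP target, overlapped at 0.783 to 1.03 and 0.982 to 1.35 FPKM.

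Of 22 genes for the transport and junctions of duct cells, 12 were below the filter, among them the chloride channel *Cftr* at 0 to 0.0422 FPKM over all livers and the secretin receptor *Sctr* at 0 to 0.0880 FPKM, both defining genes of cholangiocytes. Of the 10 tested, 1 was higher, 2 were lower and 7 were not called, beside 12.7% called of all genes tested, with a median log2 fold change of -0.073. *Slc10a2*, the apical sodium-dependent bile acid transporter, had 0.00976, 0 and 0.00985 FPKM in WT and 6.62, 6.15 and 6.24 FPKM in mutant livers (log2 fold change 2.87, SE 0.055, limma adjusted p = 2.96e-07). It was the sole gene of this list called higher and passed the expression filter through its mutant level alone. The 2 lower genes were *Krt23*, described above, which passed it through its WT level alone, and E-cadherin (*Cdh1*). The calls of *Slc10a2* and *Krt23* thus support nothing about the list.

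*Cdh1* had 11.6, 13.5 and 12.4 FPKM in WT and 5.46, 6.12 and 5.60 FPKM in mutant livers, a change just past 2-fold (limma adjusted p = 7.30e-05). Its call was lost without WT replicate 2, mutant replicate 1 or mutant replicate 3, with values of -0.95, -0.97 and -0.99. The water channel *Aqp1*, which endothelial cells also express, had 56.6 to 57.2 FPKM in WT and 29.0 to 29.5 FPKM in mutant livers, just under 2-fold at -0.94 (limma adjusted p = 3.03e-06). *Cldn3*, a tight junction protein that hepatocytes share, overlapped at 89.1 to 122.7 and 87.1 to 92.0 FPKM.

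None of the 7 tested of 12 other progenitor and injury-response markers was called, beside 12.7% of all genes tested. Their median log2 fold change was 0.0065. With a pseudocount of 0.1, 1 was called higher. At any fold, 3 were higher and 2 were lower, beside 57.0% of all genes tested in either direction. *Kit*, among these lower genes, passed the expression filter through its WT level alone. The adhesion receptor *Cd44* had 1.69 to 1.88 FPKM in WT and 2.84 to 3.20 FPKM in mutant livers (log2 fold change 0.53, limma adjusted p = 0.000637), and *Thy1* had 0.854 to 0.916 and 2.15 to 2.23 FPKM (0.75, limma adjusted p = 6.93e-05). *Alcam* went the other way, with 7.76 to 8.16 and 4.11 to 4.51 FPKM (-0.76, limma adjusted p = 6.51e-05). *Tnfrsf12a*, the TWEAK receptor of the ductular response, had 3.32 to 3.89 FPKM in WT and 2.95 to 4.90 FPKM in mutant livers, so its groups overlapped.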

How the data were processed

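RNA from 3 WT and 3 *β-cateninΔ(ex3)/+* livers was compared, with replicates taken from the labels and separate livers by the study's methods. The deposited values are FPKM per gene, made by the authors from stranded paired-end poly(A) libraries (NovaSeq). The submitters' processing notes name cutadapt 1.9, HISAT2 2.0.4, StringTie 1.3.4d, DESeq2 and edgeR. DESeq2 was the authors' test of differential expression; the roles of the others, the build and any filter are not given in the sources used here. Of 31950 genes, 28911 have the start and end of GENCODE M21 (GRCm38). DESeq2 needs counts and was not run here.

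From the FPKM, limma 3.58.1 in R 4.3.3 was fitted (trend on intensity) on log2(FPKM + 1) for genes with a mean of at least 0.5 FPKM. Single values were compared by two-sided exact permutation tests (Python 3.11.15, scipy 1.17.1). Depth was estimated from steps in the low FPKM of 6295 single-exon genes; a step may be a read or a fragment, and 31.6% to 42.8% of the low values lay on steps, against 4% by spacing. FPKM give no counting intervals. Similar transcripts were found with blastn at 90% identity over 200 bases.

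The markers and lists were chosen with earlier results of these data known. Named were all 9 markers, up to 4 called genes with the largest change per list and direction, cell type markers near 0, the tested keratins and genes overlapping a marker; other list genes were named after their values were seen. Alternatives were a pseudocount of 0.1, no filter, a mean of at least 1 FPKM, median-ratio scaling, quantile normalization, no trend, other fold thresholds, leaving out each liver, and a block for the replicate number.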

Additional observations from a re-analysis of the deposited data

How the results depend on the processing

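The 8 tested markers kept their direction under every alternative run. Of 800 comparisons of a named gene with an alternative, 787 kept direction and side of the thresholds, 9 lost the call, 2 gained it and 2 reversed. The reversals were *Krt10*, -0.0060 in all livers and -0.059 to 0.050 when 1 liver was left out. Calls lost, beside those of *Krt8*, *Hes1* and *Cdh1* given above, were *Hnf4a* under both scalings (0.93 and 0.86) and *Alas2* without mutant replicate 2 (-0.98); calls gained were *Epcam* and *Krt8-ps* with a pseudocount of 0.1. The causes were not tested. Of the markers, 4 were called as reported, 5 with a pseudocount of 0.1, 3 with either scaling, 3 at a mean of at least 1 FPKM (which leaves out *Prom1*, *Epcam* and *Sox9*) and 1 at an absolute log2 fold change of at least 1.5. Over all genes, 1680 were called, against 2705 with a pseudocount of 0.1, 759 at an absolute log2 fold change of at least 1.5 and 7551 at any fold; over the lists 60 were called, against 39 and 102 for the last 2 of these thresholds. Scaling moved the split of higher to lower calls from 1082 and 598 to 875 and 737 (median ratio) and 797 and 812 (quantile).

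With the replicate number as a block, 4 markers, 60 list genes and 1673 of all genes were called. The correlations of same-numbered livers' deviations were 0.027, 0.021 and -0.0054, so the livers share only a number. Depth limits *Prom1* and *Epcam* in mutant livers most.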

Other observations

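Of 8 proliferation genes tested, 2 were called higher in mutant livers and none lower, beside 8.17% higher and 4.52% lower of all genes tested. At any fold all 8 were higher, beside 57.0% of all genes tested in either direction. The list summed to 17.6 to 20.4 FPKM in WT and 39.2 to 40.6 FPKM in mutant livers. *Plk1*, a mitotic kinase, had 2.03 to 2.82 FPKM in WT and 9.79 to 10.2 FPKM in mutant livers, and *Ccnb1* (cyclin B1) had 0.947 to 1.40 and 3.42 to 4.82 FPKM. Among pancreas genes, only the elastase gene *Cela1* was tested, with 2.16 to 3.07 FPKM in WT and 29.7 to 37.6 FPKM in mutant livers. *Cela2a*, another elastase gene, overlapped at 0.142 to 0.552 FPKM in WT and 0.195 to 0.329 FPKM in mutant livers. *Cpa1*, *Ctrb1* and *Ins2* were listed at 0 in every liver.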
